A study of Mus musculus with 8 samples.

Results

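Transcript levels of 10 genes of the integrated stress response and of serine synthesis were described in the hypothalamus and liver of mice lacking fibromodulin, a small leucine-rich proteoglycan of the extracellular matrix. The genes were Atf4, Ddit3, Trib3, Asns, Phgdh, Psat1, Psph, Chac1, Sesn2 and Cdkn1a. They were chosen by gene symbol from a list drawn up with earlier results of these same arrays known, so their differences between tissues are given as descriptions without a test. All 10 were among the 16593 genes named on the array and had 16 of its 25697 probes: 6 genes had 1 probe, 2 had 2 and 2 had 3. The data came from male Fmod knockout mice on a C57BL/6 background, 13 weeks old and fed Pico Lab 5053 chow, from which hypothalamus and liver were dissected and frozen. Total RNA was hybridised to single-colour Illumina bead arrays, with 4 hypothalamus and 4 liver samples on 1 array each. The series text counts 4 mice. Animals may thus be shared between the tissues, and whether hypothalamus and liver samples of equal number came from one animal is not stated. The main fit used tissue only and treated the 8 arrays as independent, so p-values measure the spread between these samples only. Both tissues carry the same gene deletion, and the wild-type controls that the series text mentions are not analysed here, so that every comparison is between tissues and none concerns the deletion.

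The integrated stress response is the pathway by which a cell under amino acid shortage, unfolded protein in the endoplasmic reticulum, viral RNA or haem shortage slows protein synthesis. Each of these conditions is sensed by its own kinase, all of which phosphorylate the translation factor eIF2. General translation then falls, while the mRNA of the transcription factor ATF4 is translated better, so that ATF4 protein can change without a change in Atf4 mRNA. ATF4 switches on genes for amino acid supply, among them Asns and the enzymes that make serine from the glycolytic intermediate 3-phosphoglycerate. In the brain, serine made by this route is a precursor of D-serine, glycine and membrane lipids. The liver is a major site of serine and glycine breakdown.

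ATF4 acts as a dimer with C/EBP proteins at a composite site, and this site was looked for in the promoters to show where the members hold it. The search used the letters TGATGNAA on both strands, from 250 bases before to 50 after the annotated RefSeq transcript starts (GRCm38.p6). A match was present in the windows of 3 of the 10 members, and in those of 4.51% of 27025 annotated genes (3.97% of 32851 windows). Counted from the transcript start, the Asns match lay at positions -23 to -16 and the Chac1 match at -193 to -186, while the Trib3 match, TTACATCA, lay after the start at positions 15 to 22 on the opposite strand. The longer ER stress element (CCAAT, 9 bases of any kind, then CCACG), a site of the ATF6 branch of the unfolded protein response, was in the window of 0 members and in 0.119% of all windows. A match is a description of the letters and not a measured binding site. The 120 bases around each upstream match are printed 5′ to 3′ on the strand of the gene, with the matching letters in capitals. The Asns stretch is chr6:7693210-7693329 on the minus strand. The Chac1 stretch is chr2:119351009-119351128 on the plus strand, where the motif reads on the opposite strand.
Asns: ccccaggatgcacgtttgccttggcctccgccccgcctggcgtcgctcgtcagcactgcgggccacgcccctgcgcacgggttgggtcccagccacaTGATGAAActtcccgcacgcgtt
Chac1: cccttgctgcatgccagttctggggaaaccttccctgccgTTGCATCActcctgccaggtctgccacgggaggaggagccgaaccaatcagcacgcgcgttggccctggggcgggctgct

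In each tissue 1 array was dimmer than the others before normalization. Median deposited intensities were 142 in hypothalamus replicate 3 against 165 to 169 on the other hypothalamus arrays. In liver replicate 1 the median was 138, against 150 to 157 on the other liver arrays. Between 13285 and 13753 probes were detected on a hypothalamus array, and between 10307 and 10828 on a liver array, where detected means a deposited detection p-value under 0.05. The deleted gene Fmod had 2 probes, of which one was detected on 1 of 8 arrays and the other on 0. The sources used here do not place these probes relative to the deleted part. The tissue labels matched the summed neuronal and hepatocyte markers. The summed intensity of 7 neuronal probes was 50813 to 64228 in hypothalamus and 963 to 1084 in liver, although the Snap25 probe was detected on 0 arrays. That of 6 hepatocyte probes was 746 to 915 in hypothalamus and 157108 to 186267 in liver. Of 6 astrocyte markers, 5 were higher in hypothalamus and Slc1a2 was higher in liver (log2 difference -1.13, limma adjusted p = 3.614e-05). Of 4 exocrine pancreas probes, those of Cpa1, Cel and Ctrb1 were detected on none of the arrays, whereas Cela1 was detected on all 8 and was 17.5-fold higher in liver (log2 difference -4.13, limma adjusted p = 3.366e-09). In bulk tissue, fewer cells of a type and less RNA per cell cannot be told apart.

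Intensities are given below both as deposited and after background correction, quantile normalization and log2 transformation. Of the 16 member probes, 12 probes of 8 genes were detected on at least 4 of the 8 arrays, the filter that left 13498 probes for the fit. The other 4 were the only probes of Trib3 and Psph, 1 of 3 probes of Asns and 1 of 2 of Sesn2. Probes of 5 genes, 8 probes in all, were detected on every array. In normalized values, the dimmest hypothalamus array was brighter than the brightest liver array for 7 of the 16 probes, namely 1 of 2 Ddit3 probes, all 3 Asns probes and the Phgdh, Psat1 and Chac1 probes. Trib3 was the 1 probe in which every liver array lay above every hypothalamus array, and in the other 8 the tissues overlapped. In deposited intensities Trib3 overlapped. The Ddit3 probe ILMN_2927373 and the Sesn2 probe ILMN_2948945 were also entirely higher in hypothalamus on that scale. Among the 13498 tested probes such a separation was common, with 39.5% entirely higher in hypothalamus and 34.9% entirely higher in liver, against 6 and 0 of the 12 member probes that passed the filter. Since the members were chosen with the results of this contrast known, nothing is read from these counts.

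**Figure D1:**
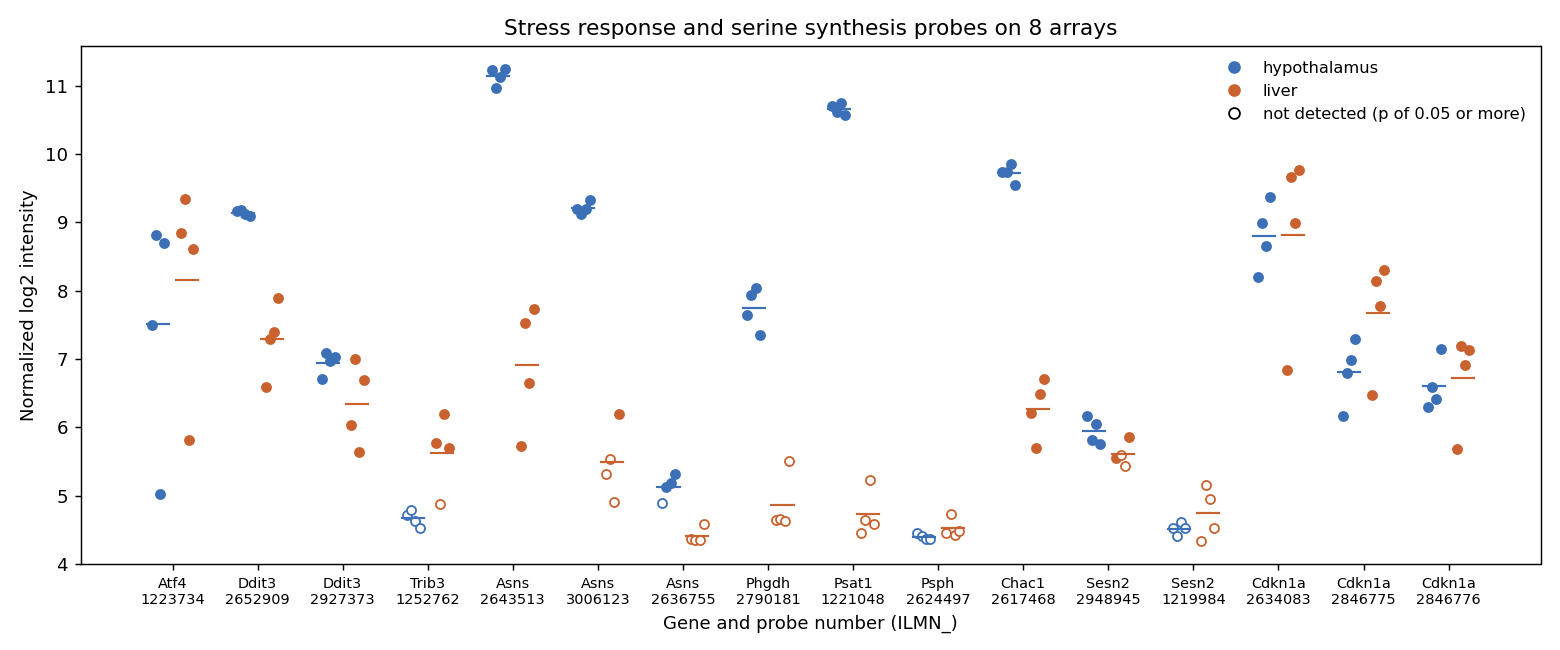
Normalized log2 intensity (vertical axis) of the 16 probes of the 10 genes on each of 4 hypothalamus and 4 liver arrays. Points are arrays, open points are arrays on which the probe was not detected, and bars are tissue means. Asns, Psat1, Phgdh and Chac1 separate by tissue, whereas Atf4 and Cdkn1a spread widely within both tissues.

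The serine synthesis enzymes were on opposite sides of the detection limit in the tissues, with 1 exception. Psat1, the aminotransferase of the middle step, had deposited intensities of 2273.5, 2076.2, 1764.6 and 2064.6 in hypothalamus and 126.2, 143.7, 160.3 and 147.6 in liver. It was bright on every hypothalamus array and not above background on any liver array. The normalized means were 10.66 ± 0.08 and 4.73 ± 0.34 (SD, n = 4 each), a log2 difference of 5.93 (SE 0.16), the largest among the member probes, which was 3.57 without background correction. Because the liver signal was only a bound, the fold was computed against the lowest signal that still counted as detected on each liver array. On the background-corrected scale, Psat1 was at least 33.7-fold higher in hypothalamus.

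Phgdh, the dehydrogenase that commits 3-phosphoglycerate to the pathway, gave 440.5, 471, 406.1 and 374.2 in hypothalamus and 132.2, 144, 149.4 and 162.9 in liver. It too was detected on 4 hypothalamus and 0 liver arrays, at normalized means of 7.74 ± 0.31 and 4.86 ± 0.43 (SD, n = 4 each). Phgdh was at least 4.46-fold higher in hypothalamus on the background-corrected scale, and the tissues did not overlap. The log2 difference was 2.88 (SE 0.23), but only 1.17 when no background was subtracted. Psph, the phosphatase of the last step, was detected on none of the 8 arrays, with intensities of 117.5 to 141.5 in hypothalamus and 126.1 to 145.7 in liver. Its single probe therefore gave no information on either tissue.

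Asns makes asparagine from aspartate and glutamine, and its promoter stretch with the TGATGAAA match is printed above. Its brightest probe, ILMN_2643513, gave deposited intensities of 3089.8, 2554.5, 2226.1 and 3011 in hypothalamus and 147.6, 235.7, 197.3 and 263 in liver. Every array of both tissues detected it, liver replicate 1 with a detection p-value of 0.031, and the tissues were far apart. The normalized means were 11.14 ± 0.13 and 6.91 ± 0.92 (SD, n = 4 each), which is 18.9-fold higher in hypothalamus (log2 difference 4.24, SE 0.39). Without background correction the log2 difference was 3.23. The 4 hypothalamus arrays covered 0.27 log2 units, and the 4 liver arrays covered 2.01. Liver replicate 1 was lowest at 5.72, followed by replicate 3 at 6.65, replicate 2 at 7.53 and replicate 4 at 7.73.

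The other Asns probes lay in the same direction with less signal. ILMN_3006123 was detected on 4 hypothalamus arrays and 1 liver array, at 9.21 ± 0.09 and 5.49 ± 0.54 (SD, n = 4 each). Its log2 difference of 3.72 (SE 0.23) was 2.07 without background correction, and no fold is given for it since 3 liver arrays were below detection. ILMN_2636755 was detected on 3 hypothalamus arrays and on 0 liver arrays, at 5.13 ± 0.18 and 4.41 ± 0.11 (SD, n = 4 each). It too has no fold, as its hypothalamus mean was below the lowest detected signals of the liver arrays.

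Chac1 encodes a cytosolic enzyme that breaks down glutathione and is a target of ATF4 and CHOP. It had intensities of 1322.2, 1241.9, 1062.2 and 1151.3 in hypothalamus and 156.8, 159.9, 189.5 and 191.8 in liver. All arrays detected it, and the lowest hypothalamus array was several times brighter than the highest liver array. The normalized means of 9.72 ± 0.12 and 6.27 ± 0.44 (SD, n = 4 each) differed 10.9-fold (log2 difference 3.45, SE 0.20, and 2.24 without background correction). Its liver signal was close to the detection limit, with detection p-values of 0.001 to 0.049.

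Ddit3 encodes CHOP, the transcription factor downstream of ATF4 that is associated with cell death in prolonged stress. The brighter probe, ILMN_2652909, gave 969.7, 901.7, 712.9 and 891.9 in hypothalamus and 167.3, 218.8, 242.1 and 280.6 in liver. After normalization the hypothalamus arrays were nearly identical at 9.17, 9.18, 9.12 and 9.09, whereas the liver arrays ran from 6.59 in replicate 1 to 7.89 in replicate 4. The tissue means were 9.14 ± 0.04 and 7.29 ± 0.54 (SD, n = 4 each), 3.60-fold higher in hypothalamus (log2 difference 1.85, SE 0.23). That difference was 1.27 without background correction and 2.55 under median scaling. The dimmer probe, ILMN_2927373, had means of 6.95 ± 0.17 and 6.34 ± 0.62 (SD, n = 4 each) and a log2 difference of 0.61 (SE 0.27). In normalized values the liver arrays of this second probe reached 7.0 in replicate 2 and overlapped the hypothalamus range of 6.70 to 7.09. Its deposited intensities did not overlap, at 294.5, 320, 257.5 and 325.6 in hypothalamus and 152.8, 200.5, 166.8 and 191.6 in liver. Its log2 difference ran from 0.25 without background correction to 1.39 under median scaling. Both probes were detected on all 8 arrays, so the tissue gap differed by 1.24 log2 units between probes of the same gene.

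Trib3 encodes a pseudokinase that is induced by ATF4 and CHOP and restrains them in turn. Its deposited intensities were 156.6, 157.1, 130.7 and 148.4 in hypothalamus and 148.1, 148.4, 179.1 and 165.8 in liver, near background throughout. It was detected on 0 hypothalamus arrays and on 3 liver arrays, replicate 2 being the exception with a detection p-value of 0.196. In normalized values the liver arrays (4.87 to 6.19) all lay above the hypothalamus arrays (4.52 to 4.79). The deposited intensities overlapped, and no fold is given. The log2 difference was -0.97 (SE 0.24), but -0.27 without background correction and -0.04 in the authors' own normalized table.

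**Figure D2:**
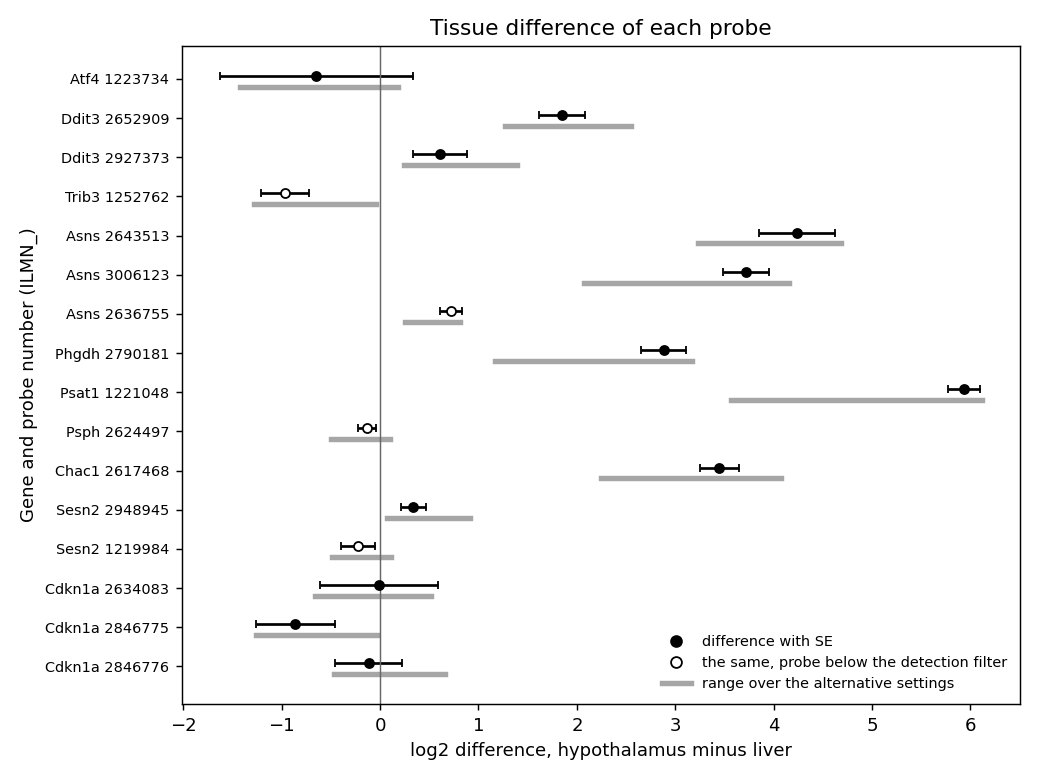
Log2 difference of hypothalamus minus liver (horizontal axis) for each of the 16 probes. Points are differences of means over 4 arrays per tissue with SE, open points are probes below the detection filter, and grey bars span the values under the 16 alternative settings. The grey bars of Atf4, Psph, the dimmer Sesn2 probe and 2 of 3 Cdkn1a probes reach both sides of 0.

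Atf4, whose product drives the genes above, did not separate by tissue but varied strongly within each. Its single probe gave deposited intensities of 412.9, 738.1, 143.2 and 722.1 in hypothalamus replicates 1 to 4 and 381.1, 576.8, 170 and 389 in liver replicates 1 to 4. Replicate 3 was the dimmest in both tissues and was barely detected, with detection p-values of 0.0301 in hypothalamus and 0.0238 in liver, whereas the other arrays were well above background. The normalized values were 7.50, 8.81, 5.02 and 8.70 in hypothalamus and 8.85, 9.35, 5.82 and 8.61 in liver. The lowest array stood 2.48 log2 units below the next in hypothalamus and 2.79 below in liver. The tissue means of 7.51 ± 1.76 and 8.16 ± 1.59 (SD, n = 4 each) came from overlapping ranges, with a log2 difference of -0.65 (SE 0.98). Without replicate 3 of hypothalamus the difference was 0.18, without replicate 3 of liver it was -1.43, and without both it was -0.59, so no tissue direction could be given.

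The spread of Atf4 was extreme for these arrays. In hypothalamus its SD ranked 4 from the highest among 11941 probes detected on all 4 arrays, whose median SD was 0.165. In liver it ranked 6 among 9055 probes, whose median SD was 0.192. The genes downstream of ATF4 were mixed in replicate 3. In hypothalamus replicate 3, the main Asns probe was at 11.13 against 10.97 to 11.24 in the other arrays, and Chac1 was at 9.85, the highest of the 4. Psat1, at 10.75, and Phgdh, at 8.03, were also highest on that array. The brighter Ddit3 probe was at 9.12 there, within 9.09 to 9.18. In liver replicate 3, Chac1 was at 6.49, within the range of 5.69 to 6.70 of the other arrays, and the brighter Ddit3 probe was at 7.40, within 6.59 to 7.89. The dimmer Ddit3 probe was lowest there, at 5.64 against 6.03 to 7.0, and the main Asns probe was second lowest, at 6.65 against 5.72 to 7.73. The Asns probe ILMN_3006123 was also lowest in liver replicate 3, at 4.91, but it was not detected on that array. Trib3 was detected there and was highest, at 6.19 against 4.87 to 5.76. None of these gaps was as large as that of Atf4. These values describe mRNA only, and ATF4 protein was not measured.

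The genes most like each member were those with the smallest root mean square difference, over the 8 arrays, between values centred on their mean. For Atf4 the nearest gene was Tomm22, which encodes a receptor subunit of the mitochondrial protein import pore, at 0.63 log2 units, followed by Mrps27, a mitochondrial ribosomal protein gene, at 1.03. Tomm22 had normalized values of 9.36, 10.69, 5.49 and 10.52 in hypothalamus and 9.74, 10.51, 6.20 and 10.62 in liver. It was thus lowest in replicate 3 of both tissues, like Atf4. Tomm22 lies on chromosome 15, as does Atf4, with 15 annotated protein-coding genes between them, while Mrps27 is on chromosome 13 and Fmod on chromosome 1.

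A drop of this kind at the same replicate number was rare. Of 7992 probes detected on all 8 arrays, 6 had their lowest array at the same number in both tissues, at least 1 log2 unit below the next in each. Of these, 4 fell in replicate 3 (Atf4, Tomm22 and 2 probes of Abhd1, on chromosome 5), and 2 fell in replicate 1 (Ncoa4, on chromosome 14, and Srpr, on chromosome 9). A drop of that size in both tissues at different numbers was found in 0 probes. Disregarding the size of the gap, 27.7% of the 7992 probes were lowest at the same number in both tissues. Whether a sequence difference under the probe, the RNA or the array moves with these drops was not tested, as probe sequences and genotypes are not used here.

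**Figure D3:**
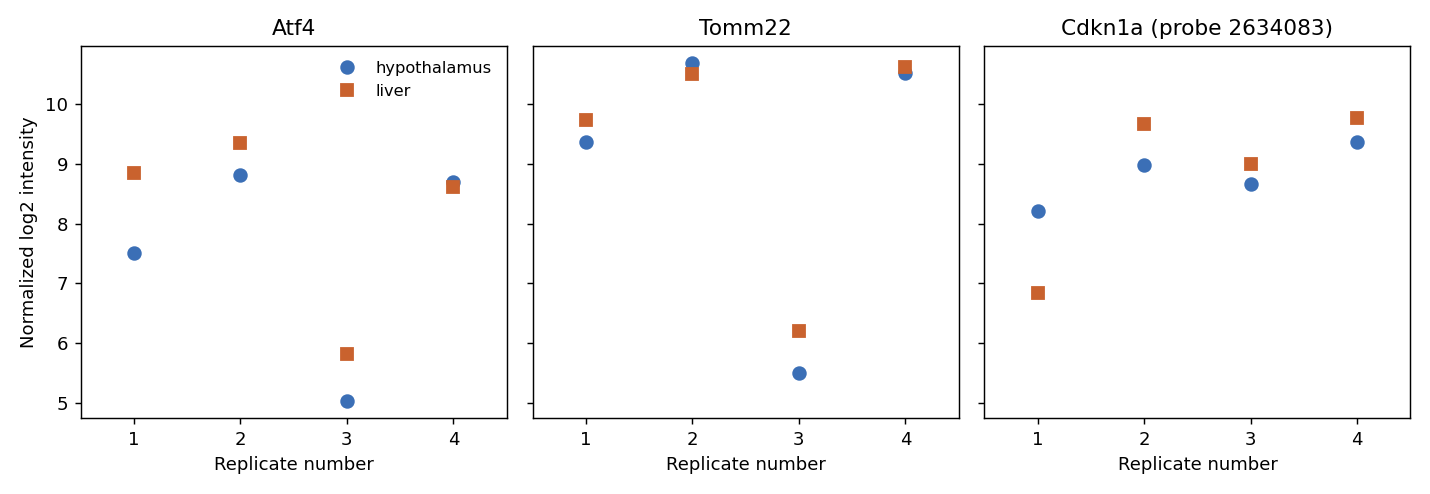
Normalized log2 intensity (vertical axis) of Atf4, Tomm22 and the brightest Cdkn1a probe against replicate number (horizontal axis), with 4 hypothalamus and 4 liver arrays. Atf4 falls to 5.02 and 5.82 and Tomm22 to 5.49 and 6.20 in replicate 3, while Cdkn1a is lowest in replicate 1 in both tissues.

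Cdkn1a encodes p21, a cyclin-dependent kinase inhibitor that is induced by p53 and also under amino acid stress. Its brightest probe, ILMN_2634083, had intensities of 576.4, 813.4, 554.2 and 1036.8 in hypothalamus and 176.8, 710.4, 511.5 and 802.5 in liver. Normalized values were 8.20, 8.99, 8.65 and 9.37 in hypothalamus and 6.84, 9.67, 8.99 and 9.77 in liver, so liver replicate 1 stood well below the rest. The tissue means of 8.80 ± 0.50 and 8.82 ± 1.36 (SD, n = 4 each) were close, with a log2 difference of -0.01 (SE 0.60) that was 0.52 under median scaling and -0.66 without liver replicate 1. The other probes, ILMN_2846775 and ILMN_2846776, had log2 differences of -0.86 (SE 0.40) and -0.12 (SE 0.34). All 3 probes were detected on all arrays and overlapped between tissues. In all 3, replicate 1 was the lowest array in both tissues, and replicate 4 was the highest in hypothalamus. In liver the highest was replicate 4 for 2 probes and replicate 2 for the third probe. The gene nearest to Cdkn1a in pattern was Gadd45g, another growth arrest gene, at 0.41 log2 units, followed by Rwdd4a at 0.45.

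Sesn2 encodes sestrin 2, a stress-induced protein that restrains mTORC1 and senses leucine. The probe ILMN_2948945 had intensities of 242.7, 205.2, 186.9 and 207.5 in hypothalamus and 145, 158.4, 163.5 and 168.4 in liver. It was detected on 4 hypothalamus and 2 liver arrays, with normalized means of 5.95 ± 0.20 and 5.61 ± 0.17 (SD, n = 4 each). The normalized tissues overlapped and the log2 difference of 0.34 (SE 0.13) ran from 0.07 under cyclic loess to 0.92 under median scaling. The probe ILMN_1219984 was detected on 0 arrays. Sesn2 was therefore the 1 of 4 genes with several probes whose probes differed in sign, -0.23 for this undetected probe.

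Within liver, several members spread more than most probes did. Against the 9055 probes detected on all 4 liver arrays, the SD was at percentile 99.6 for the main Asns probe, 97.2 and 98.5 for the Ddit3 probes, 92.8 for Chac1 and 99.1 to 99.9 for the Cdkn1a probes. In hypothalamus the same comparison placed the main Asns probe at percentile 33.0, the brighter Ddit3 probe at 2.5 and Chac1 at 31.2, while the Cdkn1a probes were again high at 93.2 to 97.0. Asns, Ddit3 and Chac1 were also dimmer in liver, and whether the dimmer signal moves the spread was not tested. Of the 8 member probes detected on all arrays, liver replicate 1 was lowest in 5 and liver replicate 4 highest in 5. Among all 7992 such probes, those shares were 31.5% each. The 8 probes come from 5 genes and are not independent. Ddit3 was nearest in pattern to Atp9a (0.13 log2 units) and Tle4 (0.15), Asns to Dusp8 (0.34) and Fsd1 (0.35), and Chac1 to Igsf21 (0.16) and Ckap5 (0.17), over 8 arrays each.

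The other genes of the pathway were compared between tissues with limma, on 1 probe per gene (the brightest tested probe) and with adjustment over all 13498 tested probes. Of 106 listed genes 91 had a probe and 75 were tested, of which 27 were higher in hypothalamus, 40 were higher in liver and 8 did not pass an adjusted p of 0.05. Hypothalamus had the higher level in 43.1% of all 9456 tested genes at that threshold, and liver in 37.3%. The median log2 difference was -0.63 over the listed genes and 0.11 over all tested genes. The lists, like the members, were drawn up with earlier results of these same arrays known. The counts and p-values of listed genes are therefore descriptions, and nothing is read from their comparison with all tested genes. Sizes depended on the background correction: without it, the log2 differences of 13 of the 32 genes named below were smaller by over 1.5 times. Folds given as "at least" are bounds on the background-corrected scale only. For Fgf21, the log2 difference was -6.12 on that scale and -3.60 without the correction.

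Upstream, liver had more transcript of 6 of the 10 tested genes for eIF2 kinases, phosphatase subunits and eIF2B, and hypothalamus of 3, with a median log2 difference of -0.56. The haem-sensing kinase gene Eif2ak1 (log2 difference -1.35, SE 0.14, limma adjusted p = 6.549e-06) and the kinase gene Eif2ak2, whose product senses double-stranded RNA (-1.47, SE 0.13, limma adjusted p = 2.015e-06), were higher in liver. So was Ppp1r15b, which encodes the constitutive eIF2 phosphatase subunit (-2.84, SE 0.18, limma adjusted p = 1.961e-07, detected on 3 hypothalamus arrays), with a difference of -1.21 without background correction and -0.95 in the authors' values. Impact, whose product inhibits the amino acid sensing kinase GCN2, was 28.9-fold higher in hypothalamus (limma adjusted p = 1.577e-10). Eif2ak3, the gene of the endoplasmic reticulum kinase PERK, had a log2 difference of -0.12 and was not called.

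The other ATF4 and CHOP targets did not share one direction: 9 of 15 were higher in liver, 4 were higher in hypothalamus and 2 were not called, with a median of -1.52. Fgf21, a hormone secreted by the liver, was at least 51.9-fold higher there, and Cth, which makes cysteine from cystathionine, at least 35.0-fold, both detected on no hypothalamus array. Eif4ebp1, a repressor of cap-dependent translation, was 33.7-fold higher in liver. Aldh18a1, the first enzyme of proline synthesis, was at least 4.97-fold higher in hypothalamus and undetected in liver, as Psat1 and Phgdh were. Of the 10 tested amino acid transporters 5 were higher in hypothalamus and 3 in liver. Slc7a3, which carries cationic amino acids, was at least 32.6-fold higher in hypothalamus, and Slc7a11, the cystine transporter, at least 9.36-fold. Slc1a4, which carries serine and other neutral amino acids, was at least 14.4-fold higher there (3 liver arrays detected). Slc38a4 was at least 26.2-fold higher in liver. Each of these passed limma's test, with adjusted p-values between 3.857e-11 and 3.522e-07.

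For 4 of 9 tested tRNA synthetase genes the hypothalamus level was the higher and for 3 the liver level, with smaller differences: 1.97 for Wars, 1.15 for Gars, 0.70 for Sars and -1.34 for Tars on the log2 scale. Limma's adjusted p for these 4 was between 8.468e-08 and 0.001036, and the Tars call was lost in the authors' normalized values, with a difference of -0.13.

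The genes that use serine and glycine mostly lay opposite to Phgdh and Psat1. In folate one-carbon metabolism and glycine cleavage 6 of 9 tested genes were called toward liver and 2 toward hypothalamus, with a median of -2.66. Shmt1, which converts serine to glycine in the cytosol, was at least 36.6-fold higher in liver, and the glycine decarboxylase gene Gldc had a log2 difference of -4.40. Aldh1l1, a cytosolic folate enzyme, was at -3.76, whereas its mitochondrial relative Aldh1l2 was at least 1.59-fold higher in hypothalamus. Of 6 tested genes of serine use and breakdown, 5 were higher in liver, with a median of -3.74. Gnmt, which methylates glycine, had the largest difference of all listed genes, at -9.86 with detection on 3 hypothalamus arrays. Agxt, which encodes an aminotransferase of glyoxylate and serine, was at least 186-fold higher in liver and Cbs, which condenses serine with homocysteine, had a difference of -4.86. Ptdss2, which makes phosphatidylserine, was at 0.97. Limma's adjusted p for these 8 genes was between 1.411e-12 and 0.0002092.

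Beside Cdkn1a, 7 of 12 tested p53 targets were higher in hypothalamus and 5 in liver, with a median of 0.57. Phlda3 was at 4.64 (detected on 2 liver arrays), Zmat3 at 3.09, Gadd45a at 1.94 and Fas at -3.11 on the log2 scale, with limma adjusted p-values between 2.231e-08 and 0.0002282. Ccng1 was the 1 listed gene whose probes were called in both directions. Beside Chac1, 3 of 4 tested glutathione genes were higher in liver: Oplah, the hydrolase of 5-oxoproline, at -3.61, Gclm, a subunit of the first enzyme of glutathione synthesis, at -3.37 and Gss, the second enzyme, at -3.25. Ggct, which encodes another gamma-glutamyl cyclotransferase, was at 1.0, and the limma adjusted p of these 4 genes was between 3.844e-09 and 8.779e-05.

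**Figure D4:**
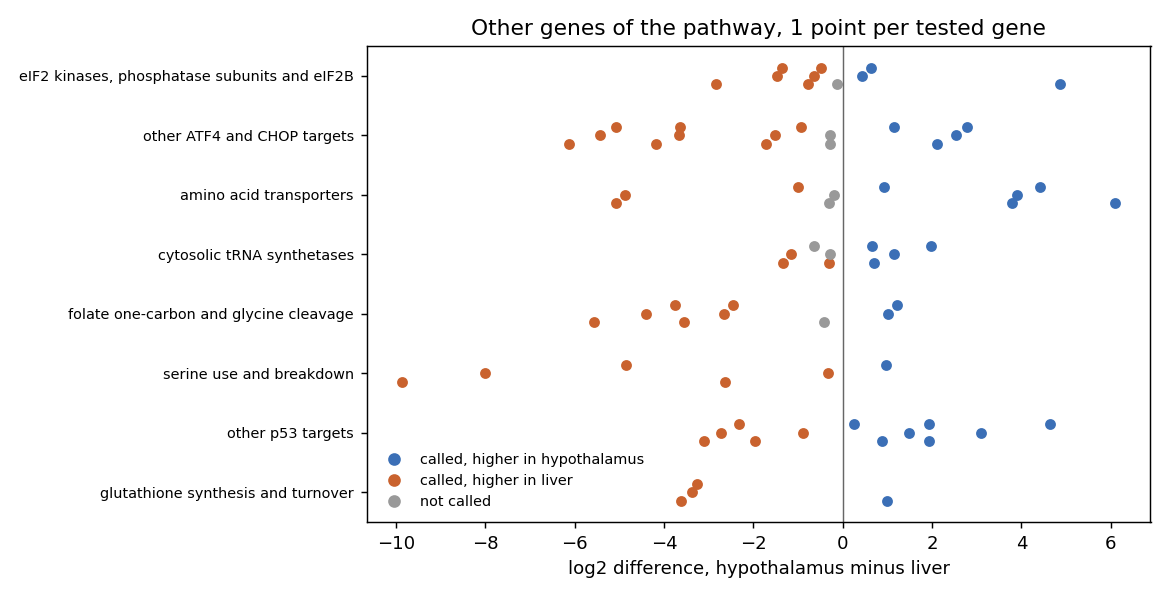
Log2 difference of hypothalamus minus liver (horizontal axis) of the 75 tested genes in the 8 lists of other pathway genes, 1 point per gene, from 4 arrays per tissue. Colours mark limma calls at an adjusted p of 0.05. All but 2 of the called folate and glycine genes and all but 1 of the called serine use genes lie on the liver side, and transporters lie on both sides.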

How the data were processed

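Gene expression was measured in 8 total RNA samples, grouped by the tissue in their labels. The authors deposited a linear intensity for every probe, not normalized between arrays, together with its detection p-value. The submitters' processing notes name lumi 2.10.0 and R 2.15.0 without saying what each did. The sources used here do not say how arrays were scanned or corrected for background. Another deposited table holds normalized intensity values whose method, scale and centring are unknown (column medians 169 in hypothalamus and 144 to 145 in liver). All deposited columns belonged to these samples.

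In R 4.3.3 with limma 3.58.1, intensities were background-corrected by normexp using negative controls inferred from the detection p-values (neqc, offset 16), quantile-normalized and converted to log2. Quantile normalization gives both tissues one intensity distribution. Probes detected (p under 0.05) on at least 4 arrays were fitted by tissue with lmFit and eBayes and adjusted by Benjamini-Hochberg. The fit was tested on simulated data. SEs of member probes come from the fit over all probes. "At least" folds raise each signal of the lower tissue that is under the lowest detected signal of its array to that signal. They hold on this scale only.

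Symbols were taken from the platform annotation, in which 23978 probes had 1 symbol, 0 had several and 1719 had none, and the gene IDs of 23962 were found in RefSeq's GRCm38.p6 table. Promoters came from the same RefSeq build. The members and lists were chosen with earlier results of these data known. All members were named. From each pathway list the text names up to 3 called genes with the largest difference in the commoner direction and 1 in the other. The genes most like a member are the nearest 2 named genes, for members detected on all 8 arrays. Eif2ak3, Ccng1, Abhd1, Ncoa4 and Srpr were named after their values were seen. Alternatives were median scaling, cyclic loess, the authors' values, no background correction, other filters, a replicate block and leaving out each array. No interval for counting error applies to array intensities, and the number of arrays limits the precision.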

Additional observations from a re-analysis of the deposited data

Results flagged for a closer look

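Among 96 sets of 4 arrays of 1 tissue, taken over the member probes and the pathway genes named above, 7 held an array that stood far from the other 3 for the range of the set, where chance alone gives about 1 in 20. Among the members, Phgdh was at 5.50 in liver replicate 4 against 4.63 to 4.65 in the other liver arrays, and the Asns probe ILMN_2636755 was at 4.58 in liver replicate 4 against 4.34 to 4.36, both on the normalized log2 scale and both below detection on every liver array. Among the other genes, Eif2ak2 was at 9.27 in liver replicate 3 against 8.92 to 8.97, and Slc1a4 was at 5.34 in liver replicate 1 against 6.45 to 6.55. In hypothalamus, Phlda3 was at 9.79 in replicate 1 against 10.05 to 10.07, Ggct was at 8.40 in replicate 1 against 8.78 to 8.86, and Gss was at 5.48 in replicate 4 against 5.95 to 6.00. The low Atf4 arrays in replicate 3 are not among the 7, since the other arrays of each tissue also spread widely.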

How the results depend on the processing

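The size of the spread of Atf4 depended on replicate 3 and on the background correction. No rank among other probes is given for the alternative settings. Its SD in hypothalamus, 1.76 on the log2 scale, was 0.73 to 2.13 when 1 array was left out, 1.01 in the authors' values and 0.87 without background correction. Its SD in liver, 1.59, was 0.37 to 1.90 when 1 array was left out, 0.94 in the authors' values and 0.92 without background correction. Without replicate 3 of both tissues, an alternative chosen after seeing the data, the SDs were 0.72 and 0.38. Differences of low probes shrank without background correction, to 3.57 for Psat1, 2.24 for Chac1 and 1.17 for Phgdh, with no change of direction. The number of member genes higher in hypothalamus was 6 of 10 and ran from 6 to 9 over the alternatives, being 8 without hypothalamus replicate 3 and 9 in the authors' values. This count includes Psph and Trib3, whose signals were at or near background. Calls over all tested probes also shifted, from 52.5% higher in hypothalamus in the main setting to 71.4% in the authors' values. Nothing is read from the count of members.

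The split of calls moved with the scaling: hypothalamus was the higher tissue in 52.5% of the calls, against 65.6% under median scaling and 71.4% in the authors' values, where the median log2 difference of tested probes was 0.49 and 0.39 against 0.07. The Ddit3, Asns, Phgdh, Psat1 and Chac1 probes kept their direction under all 16 alternatives. So did Trib3, the brighter Sesn2 probe and the Cdkn1a probe ILMN_2846775, with differences that came as near to zero as -0.04, 0.07 and -0.03. The Atf4 probe kept its direction in 14, Psph and the dimmer Sesn2 probe in 15 each, and the other Cdkn1a probes in 8 and 11. Of the 32 named pathway genes 1 lost its call (Tars, in the authors' values) and 0 turned. Their log2 differences were smaller by over 1.5 times for 14 in the authors' values and 13 without background correction.

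With the replicate number as a block 10750 probes were called against 10741, and no call of a named gene changed. The deviations of same-numbered samples from their tissue means correlated at 0.06 to 0.17 across 7992 probes, and the pair of replicate 3, at 0.06, was under the 0.1 asked of every pair. Each sample correlated best with its own number, a hint from the data, not the design.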
